A study of Arabidopsis thaliana with 36 samples.

Results

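The comparison described here is that of shoots of wild-type (WT) Arabidopsis thaliana seedlings, ecotype Col-0, after 3 days at low inorganic phosphate (Pi) against shoots after 1 day at low Pi. The libraries were chosen by their labels alone, as WT shoot at each time, which gave 4 of the 36 libraries of the series, 2 at each time. Earlier results of these data were known when the comparison itself was chosen. Of 28496 named genes, 19773 had a mean of at least 0.25 RPKM (reads per kilobase of exon, scaled to the mapped reads of the library) over the 18 shoot libraries and were tested. Seedlings of every group grew for 10 days on agar plates with half-strength modified Hoagland solution, sucrose and 250 μM Pi. Those of the 2 groups compared here were then moved to plates with 10 μM Pi for 3 days or for 1 day. Another WT group was sampled at 10 days on sufficient Pi and was not moved, so its levels are given only as a point of reference. Seedlings at day 3 were also older and farther in time from the move than those at day 1, and age, time since the move and time at low Pi cannot be told apart. The question the comparison addresses is what changed in the shoot between an early and a later time of Pi starvation. Lines 12 and 4, which carry the PHT5;1 coding sequence joined to green fluorescent protein (GFP) behind the 35S promoter, and WT roots went through the same times and are used below only to show where the change in WT shoots differed. Each library came from about 20 pooled seedlings. The study calls the 2 replicates biological, but nothing in the sources used here says that they were grown separately, so p-values measure the spread between these libraries.

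Plants short of Pi switch on a programme that saves, recycles and takes up phosphate. PHR1, a MYB transcription factor, binds a short palindrome called P1BS in the promoters of many of these genes, and small SPX proteins hold PHR1 back when Pi is plentiful. The long non-coding RNAs IPS1 and AT4 carry a site that pairs with the microRNA miR399 and keep it from the mRNA of PHO2, which encodes an enzyme that marks Pi transporters for breakdown. In leaves the programme also replaces membrane phospholipids with galactolipids and sulfolipids, which frees Pi. A separate class of genes, among them CBF, ZAT and ERF transcription factors, is known to answer touch, wounding, cold and other disturbances within minutes to hours.

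The deposited RPKM values correspond to 29.3 and 31.6 M mapped reads in the day 3 libraries and 27.6 and 24.8 M in the day 1 libraries, where M is the count of reads in units of 1e6, and no shoot library had over 37.2 M. At 0.25 RPKM a transcript of 1500 bases then holds 9.29 to 11.9 reads. Replicates had a Pearson r of 0.972 at day 3 and 0.987 at day 1 over log2 values of the tested genes, which are not independent replicates. Of the second-replicate shoot libraries 5, day 3 replicate 2 of WT among them, held reads of 313 non-coding genes (188 of them tested) that had none in the other 31 libraries. In day 3 replicate 2 these genes made up 0.278% of the summed RPKM, and none of them was called. Markers of root tissue summed to 154 and 133 RPKM at day 3 and 175 and 184 RPKM at day 1, against 5525 to 6210 RPKM in WT roots, while 40 photosynthesis genes summed to 168600 RPKM or more in each day 3 library and 162500 RPKM or more in each day 1 library. In such bulk shoots, fewer cells of a type and less RNA per cell cannot be told apart.

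Stretches of reference sequence are shown first for some of the genes higher at day 3 that carry the P1BS letters close to the gene start. Promoters were taken as 250 bases before to 50 bases after each gene start in the RefSeq annotation of TAIR10.1, and P1BS was searched as GNATATNC, which reads the same on both strands. In the lines that follow, each sequence runs 5′ to 3′ on the strand of its gene, and capitals mark the P1BS letters.
AT4, chr5:894544-894575, plus strand: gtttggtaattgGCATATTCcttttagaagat
AT1G23110, chr1:8198391-8198422, minus strand: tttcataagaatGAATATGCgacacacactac
AT3G44510, chr3:16111349-16111380, minus strand: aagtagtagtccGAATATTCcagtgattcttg
AT1G08310, chr1:2618604-2618635, plus strand: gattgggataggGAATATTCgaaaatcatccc
AT3G43110, chr3:15092585-15092616, minus strand: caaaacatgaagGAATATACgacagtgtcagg
PS2, chr1:27466546-27466577, minus strand: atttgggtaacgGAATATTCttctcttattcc
AT3G25240, chr3:9192400-9192431, plus strand: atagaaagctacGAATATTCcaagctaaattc
GDPD1, chr3:350118-350149, minus strand: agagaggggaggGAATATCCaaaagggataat
GDPD1, chr3:350054-350085, minus strand: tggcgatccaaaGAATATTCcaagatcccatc
PLDZ2, chr3:1635002-1635033, plus strand: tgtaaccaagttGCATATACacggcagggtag
The first base of the P1BS letters lay 26 bases before the gene start in AT4, and GDPD1 held them at 2 places, 127 and 63 bases before its start. The letters were found in 7 of the 12 genes named for the largest increases and in none of the 12 named for the largest decreases. They were found in 30 of the 154 promoters of genes higher at day 3 (19.5%), in 7 of the 123 of genes lower at day 3 (5.69%), and in 6.32% of the promoters of all tested genes with an entry (19693). A match describes letters and not a site in use.

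AT4 and IPS1 are also shown at the stretch that pairs with miR399, since this is the part of both RNAs that is known to act. Capitals mark the bases that pair with miR399b in the RNAs, and its seed (bases 2 to 8) in miR399b.
AT4, chr5:895149-895172, plus strand: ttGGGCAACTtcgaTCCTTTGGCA
IPS1, chr3:3051224-3051247, plus strand: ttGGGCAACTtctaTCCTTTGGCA
miR399b, chr1:23345387-23345407, minus strand: uGCCAAAGgagaguugcccug
In both RNAs 18 of the 21 bases of miR399b were paired, and 4 unpaired bases of the RNAs stood between the paired stretches, opposite the middle of miR399b. The search itself placed 3 unpaired bases opposite the end of the first 10 bases of the microRNA, so a gap there was set in advance. The levels of mature miR399 were not measured by these libraries as used here.

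In WT shoots 154 genes were higher at day 3 than at day 1 (0.779% of those tested) and 123 were lower (0.622%), at an adjusted p under 0.05 (limma, Benjamini-Hochberg over all tested genes) and a ratio of the mean RPKM of at least 2. Among the called genes the largest increase was that of AT4, a Pi starvation RNA, followed by 2 genes described as unknown proteins (AT1G23110 and AT5G20790). The largest decreases were in 2 genes of the AP2/ERF transcription factor family (AT1G19210 and AT5G21960). The log2 change ran from 0.85 to 4.17 among the higher genes, with a median of 1.38, and from −0.85 to −2.96 among the lower genes, with a median of −1.28, beside a median of −0.04 over all tested genes. By adjusted p alone 633 genes were higher (3.20%) and 1013 lower (5.12%). For every called gene the libraries of the 2 times did not overlap, which also held for 20.4% of all tested genes in the upward and 28.6% in the downward direction. In 106 of the 154 higher genes day 3 replicate 2 was above day 3 replicate 1, and in 101 of the 123 lower genes day 1 replicate 2 was above day 1 replicate 1. Without day 3 replicate 2, 75 genes were higher and 92 lower. Without day 3 replicate 1, 116 were higher and 55 lower, and without day 1 replicate 2, 162 were higher and 44 lower. Among the genes named by the rules of the analysis, 18 of 42 higher genes and 20 of 25 lower genes lost the call when at least 1 of the 4 libraries was left out. The 5 lower genes that kept it were AT4G29780, AT5G21960, RDUF1, NAS1 and GER1.

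**Figure D1:**
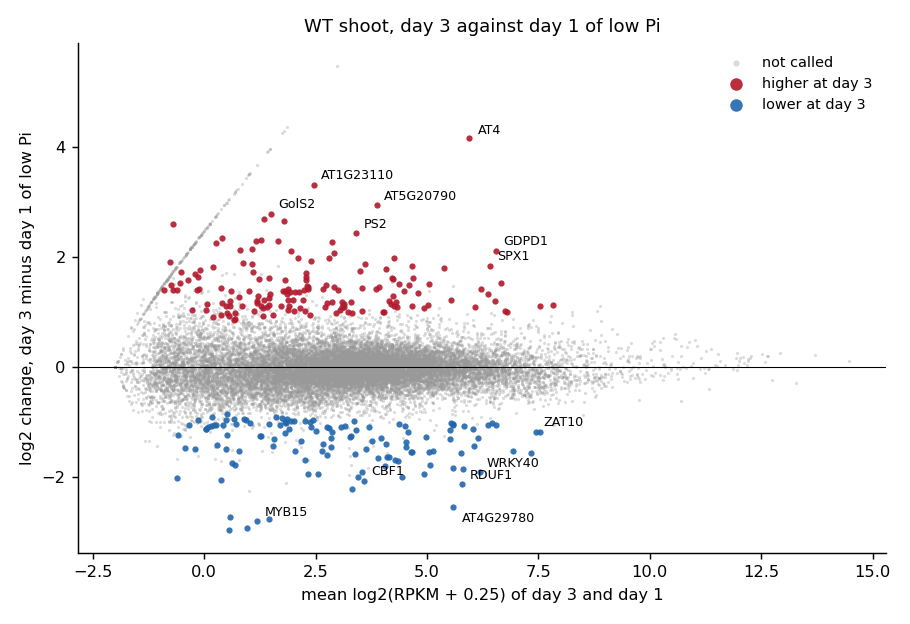
Each point is a tested gene in WT shoots, with the mean log2(RPKM + 0.25) of the day 3 and day 1 libraries on the horizontal axis and the log2 change, day 3 minus day 1, on the vertical axis. The 154 genes called higher are red, led by AT4 at 4.17, the 123 called lower are blue, and the grey points that rise steeply at the left include non-coding genes read in day 3 replicate 2 and not in the other 3 libraries.

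Of 16 genes of Pi signalling, all tested, 5 rose at day 3 and none fell, where 0.779% of all tested genes were called higher. Their median log2 change was 0.23, against −0.04 over all tested genes. AT4 had 261 and 259 RPKM at day 3, against 12.4 and 16.4 RPKM at day 1, and 6.13 and 4.15 RPKM at sufficient Pi. Both day 3 libraries were far above both day 1 libraries, and the mean was 18.1 times as high (log2 change 4.17, SE 0.293, limma adjusted p = 1.96e-05). AT4 was thus by far the highest at day 3 among the 3 WT shoot groups, and both of its day 1 libraries lay above both libraries of sufficient Pi. IPS1, the related RNA, had 5.72 and 7.36 RPKM at day 3 and 0.669 and 1.79 RPKM at day 1, with 1.39 and 0.414 RPKM at sufficient Pi. The day 1 libraries of IPS1 lay around those of sufficient Pi, and its log2 change of 2.30 (SE 0.535) had a limma adjusted p of 0.0209. That call was lost without day 3 replicate 1, day 3 replicate 2 or day 1 replicate 1, with adjusted p of 0.0752, 0.1 and 0.132.

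SPX1, whose protein holds back PHR1 and whose gene is itself a target of PHR1, had 156 and 165 RPKM at day 3 and 49.6 and 40.1 RPKM at day 1, with 10.4 and 10.0 RPKM at sufficient Pi. Unlike IPS1, SPX1 stood above the level of sufficient Pi in both day 1 libraries, and the later change was 1.84 on the log2 scale (SE 0.162, limma adjusted p = 7.72e-05). SPX2 had 42.1 and 53.4 RPKM at day 3 and 21.6 and 21.7 RPKM at day 1, a log2 change of 1.12. SPX3 had 1.78 and 3.04 RPKM at day 3 and 0.238 and 0.353 RPKM at day 1, the lowest level of the 3 SPX genes per length, with a log2 change of 2.25. The libraries of the 2 times did not overlap in any of the 3 genes. Without day 3 replicate 2 the calls of SPX2 (log2 change 0.95, under the ratio) and SPX3 (adjusted p = 0.0961) were lost, and that of SPX3 also without day 1 replicate 1 (0.0670). PHR1, their activator, had 28.1 and 31.7 RPKM at day 3 and 27.9 and 31.4 RPKM at day 1, with a log2 change of 0.01 (SE 0.0931, limma adjusted p = 0.955). PHO2, the target of miR399, had 30.9 and 32.2 RPKM at day 3 and 18.7 and 16.5 RPKM at day 1. Its log2 change of 0.84 passed the adjusted p (0.00119) but not the ratio of 2. ZAT6, a zinc finger factor with a place in both Pi and stress responses, had 69.5 and 72.3 RPKM at day 3 and 102 and 119.5 RPKM at day 1 (log2 change −0.64, limma adjusted p = 0.239).

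Of 24 genes of Pi transport 15 passed the filter on low values, and 3 of them rose, where 0.779% of all tested genes did. G3PP1, a member of the glycerol-3-phosphate permease family, had 29.5 and 35.9 RPKM at day 3, against 10.3 and 10.8 RPKM at day 1, and 1.24 and 1.15 RPKM at sufficient Pi (log2 change 1.6, SE 0.204, limma adjusted p = 0.000922). It was the transporter gene with the widest gap between the 2 times. PHO1;H1, related to the Pi exporter PHO1, had 9.07 and 14.5 RPKM at day 3 and 5.37 and 5.57 RPKM at day 1, with a log2 change of 1.04. Its call was lost without day 3 replicate 2 (0.70, adjusted p = 0.0948), without day 1 replicate 1 (1.01, 0.0538) and without day 1 replicate 2 (1.06, 0.0536). PHT1;4, a high-affinity Pi importer of the plasma membrane, had 14.8 and 12.7 RPKM at day 3 and 6.39 and 7.33 RPKM at day 1, with an adjusted p of 0.0393 that was over 0.05 when any 1 of the 4 libraries was left out (0.0909 to 0.188). PHF1, which lets PHT1 proteins leave the endoplasmic reticulum, and PHO1 passed the adjusted p but not the ratio, with log2 changes of 0.92 and 0.92. PHT5;1, the vacuolar Pi transporter after which the transgenic lines are named, had 17.5 and 17.9 RPKM at day 3 and 19.3 and 19.9 RPKM at day 1. Both day 3 values lay below both day 1 values, with a log2 change of −0.15 (SE 0.195, limma adjusted p = 0.695). The median over the 15 genes was 0.13, and without day 1 replicate 1 it was −0.08.

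Of 18 genes of Pi scavenging 13 were tested, 4 rose and none fell, where 0.779% of all tested genes rose. The median log2 change of the 13 genes was 0.75. Many of these encode phosphatases, which cut Pi from organic molecules. PAP17, a purple acid phosphatase, had 78.0 and 76.7 RPKM at day 3, against 21.3 and 22.9 RPKM at day 1, and 2.71 and 1.54 RPKM at sufficient Pi. Its replicates lay close together at both times, and the log2 change was 1.79 (SE 0.212, limma adjusted p = 0.000583). PS2, a small phosphatase named for its rise in Pi starvation, had 18.1 and 30.7 RPKM at day 3 and 3.10 and 5.55 RPKM at day 1 (log2 change 2.44, SE 0.590, limma adjusted p = 0.0240). The adjusted p of PS2 ran from 0.0534 to 0.132 when 1 of the 4 libraries was left out. PECP1, a phosphatase that acts on phosphoethanolamine and phosphocholine, had 6.57 and 10.9 RPKM at day 3 and 2.29 and 2.52 RPKM at day 1. PPCK2, a kinase of phosphoenolpyruvate carboxylase, had 1.51 and 1.44 RPKM at day 3 and 0.210 and 0.312 RPKM at day 1, all low values. The call of PPCK2 was lost without any 1 of the 4 libraries (adjusted p 0.0997 to 0.154), and that of PECP1 without any but day 3 replicate 1 (0.0824 to 0.14). PAP12 (log2 change 0.89) and PPCK1 (0.62) passed the adjusted p but not the ratio.

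Membrane lipid remodelling gave the most even picture of the Pi gene groups. Of 19 genes 17 were tested, 6 rose (0.779% of all tested genes did) and none fell. The log2 change was positive in 16. In 15 both day 3 libraries were above both day 1 libraries, against 20.4% of all tested genes. The median log2 change was 0.70. GDPD1, which breaks down glycerophosphodiesters left from phospholipids, had 189 and 199 RPKM at day 3, against 55.2 and 35.6 RPKM at day 1, and 9.81 and 8.20 RPKM at sufficient Pi (log2 change 2.12, SE 0.189, limma adjusted p = 7.72e-05). PLDZ2, a phospholipase D that degrades phospholipids, had 7.47 and 8.99 RPKM at day 3 and 2.19 and 1.61 RPKM at day 1, a log2 change of 1.99. The replacement lipids showed the same direction, as MGD2 and MGD3, the galactolipid synthases known for Pi starvation, and SQD1 and SQD2, which make sulfolipid, were all called. MGD3 had 32.1 and 43.6 RPKM at day 3 and 10.9 and 7.82 RPKM at day 1 (log2 change 1.99). MGD2 had 20.7 and 25.2 RPKM at day 3 and 6.54 and 5.62 RPKM at day 1 (1.87). SQD1, one of the more abundant genes of the group, had 123 and 158 RPKM at day 3 and 64.5 and 57.1 RPKM at day 1 (1.2). SQD2 had 109 and 133 RPKM at day 3 and 48.2 and 41.9 RPKM at day 1 (1.42). MGD1, the galactolipid synthase that builds the ordinary thylakoid membrane, had 58.5 and 65.5 RPKM at day 3 and 58.9 and 55.1 RPKM at day 1, with a log2 change of 0.12 (limma adjusted p = 0.371). DGD1, which adds the outer galactose, had a log2 change of 0.30 (limma adjusted p = 0.320). All 6 calls of this group held without day 3 replicate 2, whereas those of Pi signalling, transport and scavenging then numbered 2, 1 and 1.

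**Figure D2:**
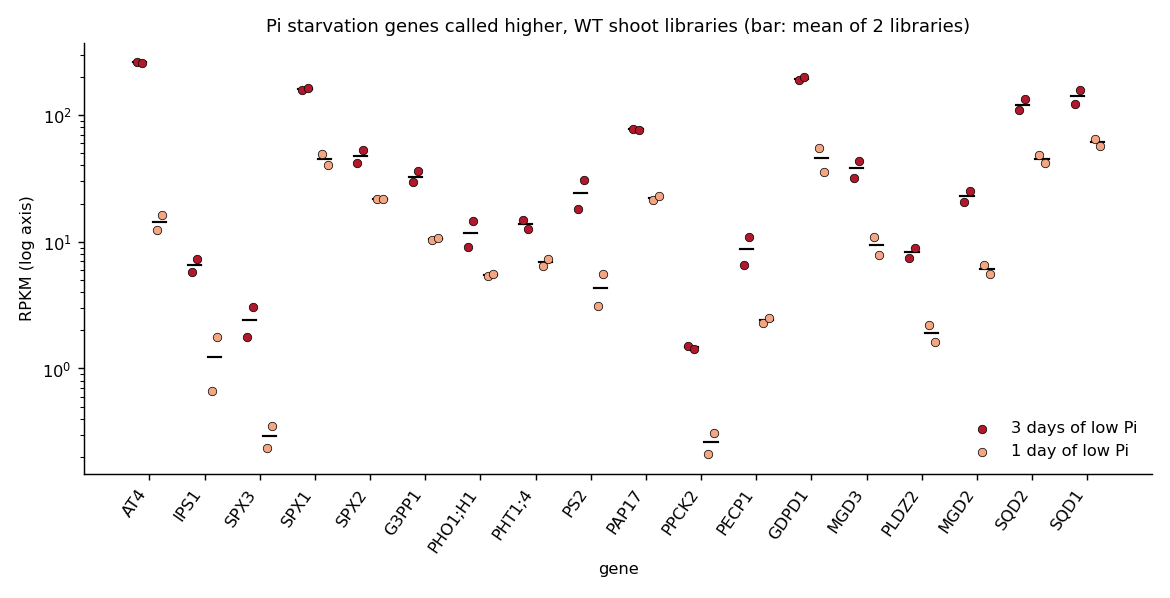
RPKM on a log axis for the Pi starvation genes called higher, with 1 point for each WT shoot library, 3 days of low Pi (dark red) left of 1 day (light), and a bar at the mean of the 2 libraries. For each gene both day 3 points lie above both day 1 points, from AT4, with 261 and 259 RPKM at day 3, to SPX3 and PPCK2, which stay under 3.1 RPKM.

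Several of the largest increases were in genes whose roles are little known. AT1G23110, described as an unknown protein, had 13.9 and 20.8 RPKM at day 3, against 1.55 and 1.42 RPKM at day 1, and 0.255 and 0.254 RPKM at sufficient Pi (log2 change 3.31, SE 0.341, limma adjusted p = 0.000269). AT5G20790, also unknown, had 38.8 and 42.5 RPKM at day 3 and 5.31 and 4.83 RPKM at day 1 (log2 change 2.94). In both genes the day 3 libraries lay far above those of day 1, which were close together. AT3G44510 and AT1G08310, which belong to the alpha/beta-hydrolase superfamily, had 5.61 to 9.47 RPKM at day 3 and 0.713 to 1.31 RPKM at day 1. DIC3, a mitochondrial dicarboxylate carrier, had 3.86 and 6.65 RPKM at day 3 and 0.859 and 0.796 RPKM at day 1. GolS2, which makes galactinol, a precursor of protective sugars in drought, had 6.69 and 7.48 RPKM at day 3 and 0.624 and 1.04 RPKM at day 1, with 0.659 and 0.161 RPKM at sufficient Pi (log2 change 2.79, limma adjusted p = 0.00174). Its day 1 and sufficient Pi libraries overlapped. AT3G25240 and AT3G43110, both of unknown function, had log2 changes of 2.35 and 2.29 at low levels, 2.13 to 4.81 RPKM at day 3. AT3G43110 lost its call without any 1 of the 4 libraries (adjusted p 0.136 to 0.171), and AT3G25240 without day 3 replicate 2 (0.0778) or day 1 replicate 1 (0.0743).

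Some of the higher genes stood lower at day 1 than at sufficient Pi, so that their day 3 level was near or under that of the seedlings that were not moved. AT1G50040, of unknown function, had 12.9 and 19.0 RPKM at day 3, against 2.74 and 3.40 RPKM at day 1, and 23.7 and 23.8 RPKM at sufficient Pi (log2 change 2.27, limma adjusted p = 0.00262). ASN1, an asparagine synthetase known to rise in the dark and under sugar shortage, had 40.4 and 48.6 RPKM at day 3 and 17.5 and 11.6 RPKM at day 1, both far under the 158 and 165 RPKM at sufficient Pi. ORE1, a NAC transcription factor of leaf ageing, had 9.24 and 7.04 RPKM at day 3 and 3.09 and 2.48 RPKM at day 1, with 8.13 and 7.73 RPKM at sufficient Pi. ASN1 and ORE1 were the 2 called members of 14 tested genes of senescence and carbon starvation. Over all tested genes 0.779% were called higher, and the median log2 change of the list was 0.30. PAR1, a growth regulator of the shade response, had 37.8 and 42.4 RPKM at day 3, 13.9 and 14.3 RPKM at day 1, and 46.2 and 47.8 RPKM at sufficient Pi. EBF2, an F-box protein of ethylene signalling, had 41.7 and 45.9 RPKM at day 3, 20.0 and 21.5 RPKM at day 1, and 53.1 and 65.7 RPKM at sufficient Pi. NRT1.8, a nitrate transporter, had 2.56 and 3.94 RPKM at day 3, 1.4 and 1.69 RPKM at day 1, and 8.55 and 5.23 RPKM at sufficient Pi, and its log2 change of 0.94 (limma adjusted p = 0.0393) lost the call without day 3 replicate 2 (0.65, 0.233), day 1 replicate 1 (0.166) or day 1 replicate 2 (0.0911). In these genes both day 1 libraries lay under both libraries of sufficient Pi.

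The small auxin-induced SAUR genes were looked at after their values were seen. Of 63 tested by their description, 9 were called higher and 1 lower, against 0.779% and 0.622% of all tested genes. Their median log2 change was 0.47 in WT, 0.35 in line 12 and 0.70 in the libraries labelled line 4. AT4G34760 had 56.8 and 52.6 RPKM at day 3, 15.9 and 23 RPKM at day 1, and 40.2 and 38.2 RPKM at sufficient Pi. AT4G34790 had 11.2 and 13.2 RPKM at day 3, 4.98 and 3.65 RPKM at day 1, and 16.9 and 14.4 RPKM at sufficient Pi. SAUR genes include close copies whose reads the mapping may have split, so their single values are uncertain. Of 6 tested glutamine dumper genes, 3 were called higher (GDU1, GDU2 and GDU4, against 0.779% of all tested genes) and none lower. This family, named for proteins that raise amino acid export, was also chosen after its values were seen. GDU4 had 31.8 and 26.5 RPKM at day 3 and 12.1 and 14.8 RPKM at day 1.

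Early stress regulators were among the genes that fell. Of 17 tested genes of touch, wound and cold early response 7 fell and none rose, where 0.622% of all tested genes were called lower. Their median log2 change was −1.18, against −0.04 over all tested genes. Their median level was 65.6 RPKM at day 3 and 139 RPKM at day 1, beside 15.5 RPKM at sufficient Pi. CBF1, a master switch of cold acclimation, had 4.86 and 6.42 RPKM at day 3, against 21.8 and 26.9 RPKM at day 1, and 1.28 and 1.15 RPKM at sufficient Pi (log2 change −2.07, SE 0.370, limma adjusted p = 0.00622). Both day 3 libraries lay under the day 1 libraries and above those of sufficient Pi. CBF2, its neighbour and close copy, had 8.91 and 8.35 RPKM at day 3 and 26.0 and 35.98 RPKM at day 1 (log2 change −1.80). CBF3 had 1.54 and 1.32 RPKM at day 3 and 3.96 and 5.47 RPKM at day 1 and did not pass (limma adjusted p = 0.0828). The 3 CBF genes are similar in sequence, and how reads were split between them is uncertain. WRKY40, a regulator of defence, had 27.0 and 48.1 RPKM at day 3 and 111 and 168 RPKM at day 1, with 6.92 and 11.1 RPKM at sufficient Pi (log2 change −1.91, limma adjusted p = 0.0226). ZAT10, a zinc finger repressor, had 110.5 and 119.6 RPKM at day 3 and 219 and 308 RPKM at day 1 (−1.18, adjusted p = 0.0318). ZAT12, ERF5 and SZF2 were the other called members of the list, with log2 changes of −1.54, −1.77 and −1.43. All 3 also kept day 3 levels above those of sufficient Pi. Without day 1 replicate 2, or without day 3 replicate 1, 1 of the 17 genes was called, and without day 3 replicate 2, 3 were. Each of the 7 calls was lost without at least 1 of the 4 libraries.

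The 12 genes named for the widest decreases were CBF1 and 11 genes outside that list. AT4G29780, described as an unknown protein, had 18.21 and 20.5 RPKM at day 3, against 89.0 and 146 RPKM at day 1, and 3.64 and 4.37 RPKM at sufficient Pi (log2 change −2.55, limma adjusted p = 0.00401). RDUF1, a RING ubiquitin ligase, had 25.4 and 26.6 RPKM at day 3 and 98.3 and 134 RPKM at day 1, with 9.88 and 13.5 RPKM at sufficient Pi (−2.13, adjusted p = 0.000663). These 2 combined a high level at day 1 with narrow day 3 values. MYB15, a MYB factor of cold and defence responses, had 0.431 and 0.668 RPKM at day 3 and 2.81 and 9.74 RPKM at day 1, where the replicates were far apart (−2.81, SE 0.591). AT1G19210 and AT5G21960, described as integrase-type DNA-binding proteins, a term the annotation uses for AP2/ERF factors, had 0.178 to 0.504 RPKM at day 3 and 1.74 to 8.15 RPKM at day 1, with log2 changes of −2.96 and −2.93. Of 81 tested genes described in this or like terms, 12 fell (0.622% of all tested genes did) and 1 rose (0.779%). This family was chosen after values were seen. ORA59, the 1 that rose and a regulator at the meeting point of jasmonate and ethylene, had 19.0 and 18.7 RPKM at day 3 and 5.88 and 7.76 RPKM at day 1. ERF13 had 4.46 and 3.77 RPKM at day 3 and 12.5 and 31.9 RPKM at day 1. BAP1, a membrane-bound inhibitor of cell death, had 4.97 and 5.15 RPKM at day 3 and 14.7 and 30 RPKM at day 1. CYP707A3, an enzyme that inactivates abscisic acid, had 8.56 and 11.8 RPKM at day 3 and 26.6 and 62.7 RPKM at day 1 (−1.997, adjusted p = 0.0298). MYC2, the central jasmonate factor, was the 1 called member of 19 jasmonate genes, with 27.5 and 28.3 RPKM at day 3 and 47.1 and 103 RPKM at day 1. Its log2 change of −1.31 (limma adjusted p = 0.0360) was −0.75 without day 1 replicate 2 (0.239), and the call was also lost without day 3 replicate 1 (0.144) or day 3 replicate 2 (0.113). AT3G09870, described as SAUR-like, had 1.72 and 0.178 RPKM at day 3 and 5.03 and 7.18 RPKM at day 1, a wide gap between its day 3 replicates. AT1G50750, of a plant mobile domain family, and AT4G16240, an unknown protein, had 0.264 to 0.491 RPKM at day 3 and 1.69 to 4.61 RPKM at day 1. Of the 11 genes only AT4G29780, RDUF1 and AT5G21960 kept the call without each of the 4 libraries in turn, with adjusted p of at most 0.0385, 0.00874 and 0.0452.

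**Figure D3:**
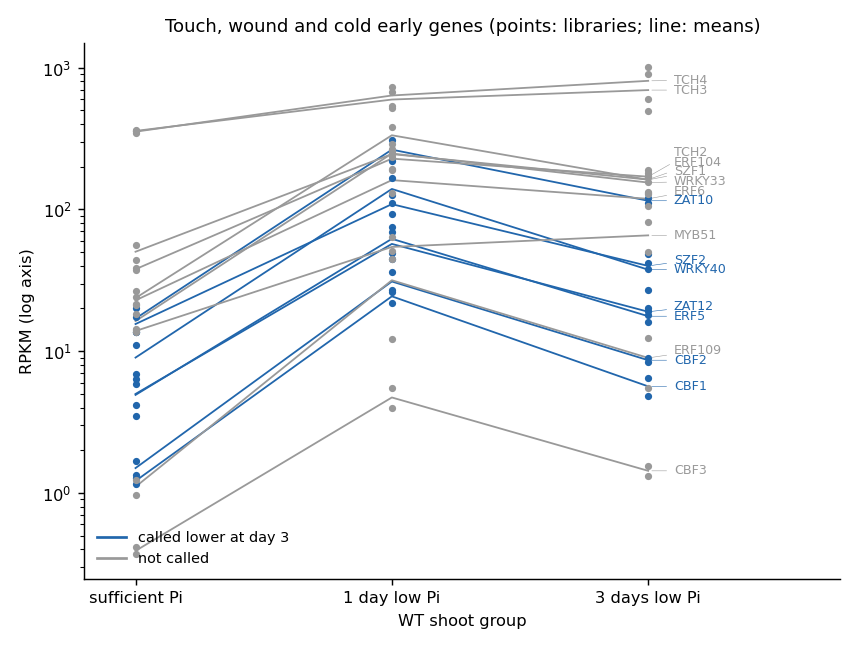
RPKM on a log axis for the 17 genes of touch, wound and cold early response in WT shoots at sufficient Pi, after 1 day and after 3 days of low Pi, with a point for each library and a line through the means. Blue marks the 7 genes called lower at day 3. Each of them has its own highest mean at day 1 and a day 3 mean above that of sufficient Pi. CBF1, for example, has 4.86 and 6.42 RPKM at day 3 and 21.8 and 26.9 RPKM at day 1. CBF3 and ERF109, which are not called, take the same course.

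The promoters of the lower genes were also searched for letters known from stress and clock genes, and the shares are given as a description. The rapid stress element, searched as CGCGTT or AACGCG on either strand, was in 12 of 123 (9.76%) against 3.82% of all tested promoters, and the evening element, AAAATATCT on either strand, in 8.13% against 3.10%. Promoters of 2 called genes are printed where the first of these stands before the gene start, with its letters in capitals.
AT1G19210, chr1:6627772-6627801, minus strand: gttttaagtacaAACGCGctccctttgacc
CBF2, chr4:13016292-13016321, minus strand: agacagaaactcCGCGTTcgaccccacaaa
Of the 17 genes of touch, wound and cold early response 2 held the rapid stress element (11.8%). Of the 154 higher genes 4 held it (2.60%) and 2 held the evening element (1.3%).

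Genes of cell division and of ribosomal proteins passed the adjusted p more often downward than upward, mostly at less than the ratio of 2. Of 20 cell division genes, all tested, none was called, but 6 passed the adjusted p downward (5.12% of all tested genes did) and the log2 change was negative in 19, with a median of −0.48. In 16 of the 20 both day 3 libraries lay under both day 1 libraries, against 28.6% of all tested genes. PCNA1, the sliding clamp of DNA replication, had 7.95 and 8.18 RPKM at day 3 and 12.8 and 17.57 RPKM at day 1 (log2 change −0.88, limma adjusted p = 0.0170). MCM2 and MCM5, subunits of the replicative helicase, had log2 changes of −0.78 and −0.66, and AUR1, a mitotic kinase, −0.65. CYCA1;1 and CYCB1;4, cyclins of the later cell cycle, had −0.64 and −0.72. Of 293 tested genes of ribosomal proteins, 319 listed by description, 95 passed the adjusted p downward and 2 upward, and the log2 change was negative in 271, with a median of −0.34. Of them 3 were called lower, AT1G29965 (ribosomal protein L18ae/LX family), AT1G23410 (ribosomal protein S27a joined to ubiquitin) and AT3G11120 (L41 family). AT1G29965 had 5.86 and 5.97 RPKM at day 3 and 11.01 and 14.7 RPKM at day 1. All 3 lost the call without day 1 replicate 2. The median of the ribosomal protein genes was −0.18 without day 1 replicate 2 and −0.50 without day 1 replicate 1. The median of the cell division genes ran from −0.62 to −0.31 when 1 of the 4 libraries was left out.

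The lists of salicylate, jasmonate and abscisic acid genes gave 1 call each, where 0.779% of all tested genes were called higher and 0.622% lower. Hormone genes outside these lists were also called. Among them were PP2CA (log2 change 1.22), ORA59 (1.45) and EBF2 (1.07), higher, and CYP707A3 (−1.997), lower. PR2, a glucanase that marks salicylate responses, had 10.99 and 16.4 RPKM at day 3 and 2.88 and 3.59 RPKM at day 1, with 6.39 and 1.35 RPKM at sufficient Pi, and was the 1 called of 16 salicylate genes (log2 change 1.98, limma adjusted p = 0.0451). Without any 1 of the 4 libraries its adjusted p was 0.106 to 0.192. NIMIN1, which binds the salicylate coactivator NPR1, had a log2 change of 1.2 (adjusted p = 0.163). VSP2, a jasmonate marker, had 96.8 and 63.6 RPKM at day 3 and 22.9 and 34.0 RPKM at day 1 and did not pass (adjusted p = 0.0600). Of 15 genes of abscisic acid and drought 1 rose, the phosphatase HAI1, with 1.86 and 1.51 RPKM at day 3 and 0.378 and 0.940 RPKM at day 1 (log2 change 1.16). That call was lost without day 1 replicate 1 (0.70, adjusted p = 0.185), day 3 replicate 1 (0.15) or day 3 replicate 2 (0.0712). RAB18, a dehydrin, and P5CS1, the enzyme that limits proline synthesis, passed the adjusted p with log2 changes of 0.96 and 0.72 but not the ratio.

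Nutrient groups other than Pi gave few calls. Of 13 tested sulfate genes none was called, though 12 had a positive log2 change, with a median of 0.44. LSU1 and LSU2, which mark sulfur shortage, had log2 changes of 1.04 and 0.84 (limma adjusted p = 0.338 and 0.132). Of 17 tested iron genes 13 had a negative log2 change, with a median of −0.32. The lowest, −2.25, did not pass the adjusted p. Only 1 fell by the calls, NAS1, an enzyme that makes the metal chelator nicotianamine. NAS1 had 5.17 and 3.56 RPKM at day 3 and 9.29 and 12.7 RPKM at day 1. FER1, which encodes an iron store, had 128 and 114 RPKM at day 3 and 66.1 and 56.8 RPKM at day 1, with 256 and 196 RPKM at sufficient Pi, and its log2 change of 0.98 passed the adjusted p (0.0149) but not the ratio. Of 13 tested nitrate genes 1 was called, NRT1.8, with the limits given above, and NRT1.1, the nitrate sensor, had a log2 change of −0.53 (adjusted p = 0.0132). HHO2, a repressor that joins nitrate and Pi signals, had a log2 change of 0.75 (adjusted p = 0.00989).

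Photosynthesis genes, among the most abundant of the shoot, gave no calls. Of 40 tested 32 had a positive log2 change, and the median was 0.11. LHCB4.2, an antenna protein of photosystem II, had 2741 and 2218 RPKM at day 3 and 1820 and 1670 RPKM at day 1 (log2 change 0.50), while RBCS1B, a small subunit of Rubisco, had 1549 and 1144 RPKM at day 3 and 2097 and 1978 RPKM at day 1 (−0.61). No member was called of 18 anthocyanin and flavonoid genes, 25 clock genes, 16 glucosinolate genes, 11 starch and sugar genes, 23 expansins and xyloglucan enzymes, 9 chlorophyll genes, 9 heat shock genes and 6 inositol genes that were tested, and their medians ran from −0.23 to 0.17. BAM5, a beta-amylase, had 2.23 and 2.95 RPKM at day 3 and 0.398 and 0.906 RPKM at day 1 (adjusted p = 0.0544). At 2 libraries a group these are not shown to be unchanged.

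**Figure D4:**
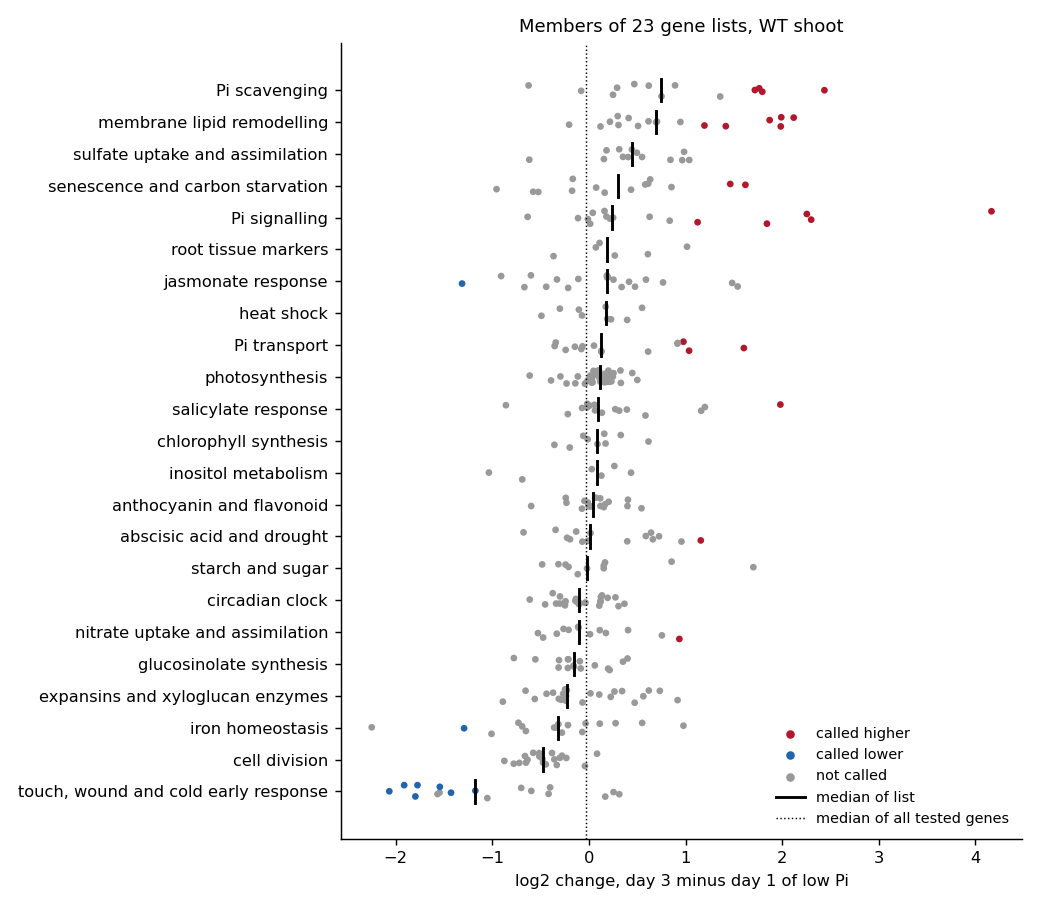
The log2 change, day 3 minus day 1, in WT shoots for each tested member of 23 gene lists, with genes called higher in red and lower in blue, a bar at each list's median and a dotted line at the median of all tested genes (−0.04). Pi scavenging (0.75) and membrane lipid remodelling (0.70) have the highest medians, and touch, wound and cold early response (−1.18) the lowest.

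The same times in line 12 gave no difference from WT that passed the test for a single gene. PHT5;1 had 56.2 and 52.6 RPKM at day 3 and 89.2 and 93.8 RPKM at day 1 in line 12, above the 17.5 to 19.9 RPKM of WT. Of the 154 genes higher in WT, 18 were also called higher in line 12, where 0.243% of all tested genes were, and 115 had a positive change, with a median of 0.36. Of the 123 lower genes 5 were also called lower there, where 0.430% of all tested genes were, and their median was −0.27. The genes were chosen by their calls in WT, so medians nearer to 0 in other libraries follow in part from the choice and are given as a description. The difference between the 2 changes, tested for each gene in limma, passed an adjusted p of 0.05 for 0 of 19773 genes, although 2493 had an unadjusted p under 0.05, and the smallest adjusted p was 0.0542. CBF1 was low at both times in line 12. It had a change of −2.07 in WT, with 4.86 and 6.42 RPKM at day 3 and 21.8 and 26.9 RPKM at day 1, and of 0.18 in line 12, with 0.783 and 0.511 RPKM at day 3 and 0.710 and 0.388 RPKM at day 1. The difference of −2.25 (SE 0.523) had a limma adjusted p of 0.111. The median change of the 17 early response genes was −1.18 in WT and −0.05 in line 12. It was −1.98 in the libraries labelled line 4 and −0.09 in WT roots. AT4 changed by 4.17 in WT and 3.12 in line 12, and SPX1 by 1.84 and 1.77, with adjusted p of the difference of 0.319 and 0.923. Several genes shared the smallest adjusted p of 0.0542. Among the genes called in WT, the 5 with the smallest unadjusted p were ORA59, GER1, PYD4, EBF2 and AT5G44260. ORE1, also called in WT, and PHF1, which was not called, had the same adjusted p. GER1, a germin-like protein, had 24.5 and 16.8 RPKM at day 3 and 53.1 and 65.6 RPKM at day 1 in WT, a change of −1.53 beside 0.22 in line 12.

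The libraries labelled line 4 were shared more of the lower genes than of the higher genes with WT. PHT5;1 in these libraries, 18.9 and 22 RPKM at day 3 and 21.1 and 21.3 RPKM at day 1, was close to the level of WT shoots, and at sufficient Pi it had 35.5 and 19.0 RPKM there and 15.2 and 14.7 RPKM in WT. SPX1 and PR2 stood away from WT in these libraries at day 1, as they did in line 12, but not every gene did. ZAT10 had 146.3 and 264.5 RPKM at day 1 in the libraries labelled line 4, which overlapped the 219.2 and 308.5 RPKM of WT, and 42.8 and 37.5 RPKM in line 12. SPX1 had 8.24 and 5.94 RPKM at day 1 in the libraries labelled line 4 and 13.1 and 12.7 RPKM in line 12, against 49.6 and 40.1 RPKM in WT. PR2 had 53.7 and 46.99 RPKM at day 1 in the libraries labelled line 4 and 339 and 261 RPKM in line 12, against 2.88 and 3.59 RPKM in WT. The values that follow are those of the libraries labelled line 4. Of the 154 genes higher in WT 49 were also called higher there (1.34% of all tested genes were), with a median change of 0.71. Of the 123 lower genes 74 were also called lower (1.81% of all tested genes were), with a median of −1.4. The difference between the 2 changes passed for 128 genes (0.647%), in 54 of which the WT change was the higher one. Among these 128 were 14 of the genes higher in WT and none of those lower in WT. SAUR22 and SAUR28, which promote cell expansion by their family's known role, changed less in WT. SAUR22 had 4.40 and 3.31 RPKM at day 3 and 1.19 and 0.993 RPKM at day 1 in WT, against 22.1 and 26.3 RPKM at day 3 and 0.254 and 0.458 RPKM at day 1 in the libraries labelled line 4 (difference of log2 changes −3.75, SE 0.438, limma adjusted p = 0.0009). PP2CA, a phosphatase that holds back abscisic acid signalling, had 65.3 and 75.4 RPKM at day 3 and 27.3 and 32.7 RPKM at day 1 in WT, against 31.2 and 29.9 RPKM at day 3 and 38.1 and 35.8 RPKM at day 1 in the libraries labelled line 4 (difference 1.5, adjusted p = 0.00651). BT4, a BTB and TAZ domain protein, AT5G66580 and AT1G50040 also differed, by 1.22, −2.47 and 2.68. Both AT4 (4.17 in WT and 4.02 in the libraries labelled line 4) and CBF1 (−2.07 and −2.58) had differences with adjusted p of 0.916 and 0.721. The number of genes that differed was 49 to 218 when 1 of the 8 libraries was left out.

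WT roots at the same times shared some of the increases and few of the decreases. Of the 154 higher genes 137 were tested in both tissues, and 49 of them were called higher in roots (2.31% of all root genes were), with a median change of 0.48. Of 108 lower genes 3 were called lower in roots (0.463% were) and 3 higher, with a median of −0.15. The difference between the 2 changes passed for 717 of 18698 genes (3.83%), 59 of the 137 higher and 35 of the 108 lower genes among them. Of the 18 called genes of the 4 Pi lists 9 had a change that was smaller in shoots than in roots by this test and none a larger one. MGD3, one of the lipid enzymes among them, changed by 1.99 in shoots, with 32.1 and 43.6 RPKM at day 3 and 10.9 and 7.82 RPKM at day 1, and by 5.39 in roots, with 84.3 and 91.0 RPKM at day 3 and 1.996 and 1.69 RPKM at day 1 (difference −3.41, SE 0.259, limma adjusted p = 4.36e-08). The day 1 level of MGD3 was thus higher in shoots than in roots, and the day 3 level lower. SQD2 changed by 1.42 in shoots and 3.01 in roots, and PECP1 by 1.72 and 6.99. SPX1 changed by 1.84 in shoots and 3.20 in roots (adjusted p of the difference 0.00431), where its day 3 level was 569 and 516 RPKM. AT4 changed by 4.17 in shoots and 2.94 in roots, where it had 2333 and 2038 RPKM at day 3 and 338 and 240 RPKM at day 1 (adjusted p of the difference 0.0550). ASN1, ORE1 and PAR1, which stood low in shoots at day 1, changed by 1.62, 1.46 and 1.49 in shoots and by −0.46, −0.06 and 0.24 in roots, with adjusted p of the differences of 0.000535, 0.00782 and 0.000162. CBF1 had a difference of −0.64 between the tissues (adjusted p = 0.771), with a root day 1 replicate at 5.54 RPKM and the other at 0.677 RPKM.

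**Figure D5:**
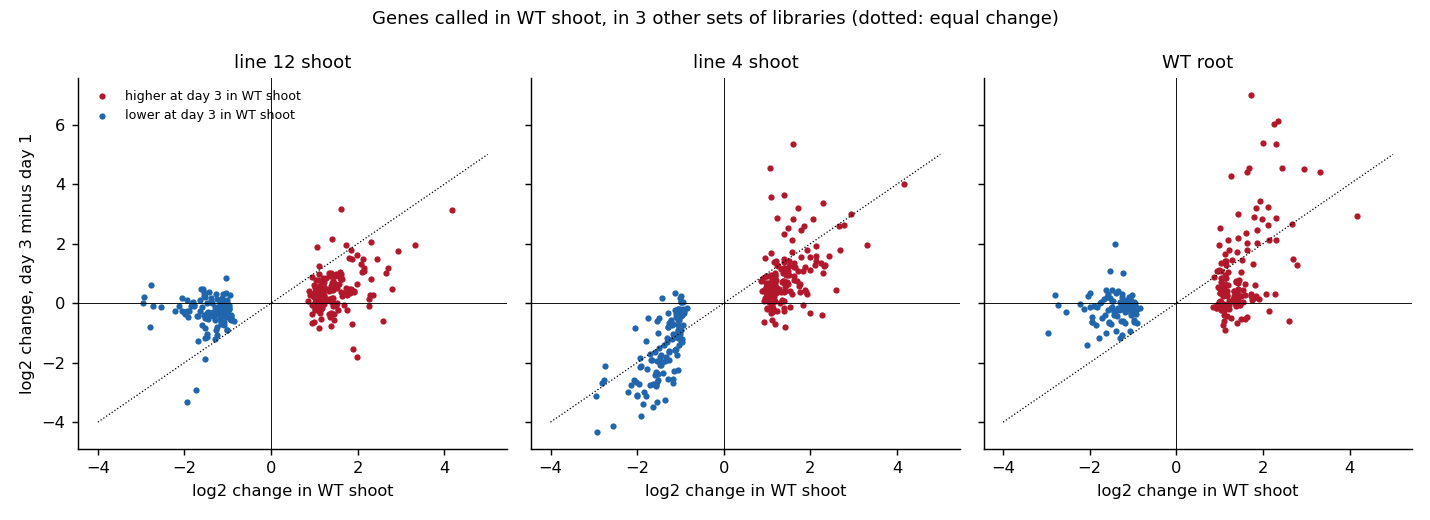
For the genes called in WT shoots, the log2 change in WT shoots (horizontal axis) against the log2 change, day 3 minus day 1, in line 12 shoots, in the shoot libraries labelled line 4 and in WT roots (vertical axes), with genes higher in WT shoots in red, lower in blue and a dotted line at equal change. The lower genes have a median of −0.27 in line 12, −1.4 in the libraries labelled line 4 and −0.15 in roots, and the higher genes 0.36, 0.71 and 0.48.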

How the data were processed

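Paired reads of 100 bases, 12 libraries a lane, were mapped by the authors to TAIR10 with CLC Genomics Workbench, and the deposited values are RPKM for each library. How reads with several matches were shared, and whether strand was used, is not given in the sources used here. The authors' table also holds mean RPKM and log2 ratios between groups, and a list of p-values for gene ontology terms; none of these was used. Entries with no gene name made up at most 0.109% of any library by summed RPKM and were not used. For each library the total number of reads was taken from the RPKM of 5981 single-exon genes. It was the scale that made values under 50 reads whole, within 0.01 reads, in at least 98.5% of values. Whether mates counted as separate reads was not tested. Some of the totals, up to 37.2 M in shoots, lay above the range of mapped reads that the study gives. At low values counting error adds to the spread between libraries.

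Values of log2(RPKM + 0.25) were fitted by limma 3.58.1 (R 4.3.3, variance trend) over the 18 shoot libraries in 9 groups, 9 residual degrees of freedom. Calls required an adjusted p (Benjamini-Hochberg over 19773 genes) under 0.05 together with a ratio of mean RPKM, floored at 0.25, of at least 2. A log2 change of RPKM plus 0.25 understates the change of low genes. Differences between the WT change and that of line 12, line 4 or root (all 36 libraries) were contrasts in limma, called at an adjusted p under 0.05. Genes named were SPX1, IPS1, AT4 and PHT5;1, the 12 called genes with the largest increase and the 12 with the largest decrease among those with at least 2 RPKM in the higher group, called list members, further list members with values, and for each difference the 5 called genes with the smallest p. Genes read only in the 5 libraries with extra non-coding genes were not eligible. The comparison, gene lists and named genes were chosen with earlier results of these data known. Alternatives changed the pseudocount, the filter, scaling, variance trend, fold, libraries fitted, a replicate block and each replicate left out. Replicate numbers were not used to pair the samples in the main fit. Without those non-coding genes, 8 of 36 pairs of groups had a residual correlation over 0.1, and the highest was 0.238. In 7 of the 9 groups the mean correlation with the other groups was above 0, so effects shared by replicate number are not excluded.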

Additional observations from a re-analysis of the deposited data

Results flagged for a closer look

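The changes below, day 3 minus day 1 on the log2 scale, differed between WT shoots and another set of libraries by a limma test of the difference itself (adjusted p under 0.05), and are given as WT shoot minus the other. No cause was tested.

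Between WT shoots and the libraries labelled line 4, whose PHT5;1 level was close to that of WT at both times, 128 genes differed. Among the genes named here the change was larger in WT for AT1G50040 (2.68), PYD4 (1.67), PP2CA (1.5), BT4 (1.22), SQD1 (0.87) and PHF1 (0.83). It was smaller in WT for SAUR22 (−3.75), SAUR28 (−3.47), AT5G66580 (−2.47) and NRT1.1 (−0.76).

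Between WT shoots and WT roots 717 genes differed. Members of the Pi gene lists and other genes called higher whose change was smaller in shoots were PECP1 (−5.27), SPX3 (−3.77), AT3G25240 (−3.76), MGD3 (−3.41), IPS1 (−3.04), SQD2 (−1.6), AT5G20790 (−1.58), SPX1 (−1.35), UGP3, which supplies UDP-glucose for sulfolipid (−1.18), GDPD1 (−1.12), PAP17 (−1.09) and SQD1 (−0.91). Genes called lower in shoots, for which the shoot change lay under the root change, were AT5G05840 (−3.42), MYB15 (−3.09), AT1G50750 (−2.67), CYP707A3 (−2.33), RDUF1 (−1.95), ERF5 (−1.80), AT1G29965 (−1.23) and AT1G23410 (−1.01), and the replication genes PCNA1 (−0.86) and MCM2 (−0.70) differed in the same direction. The shoot change lay above the root change for ASN1 (2.08), AT1G50040 (1.97), AT5G44260 (1.6), ORE1 (1.52), ORA59 (1.51), PAR1 (1.26), AT3G44510 (1.22), AT5G66580 (1.18), PYD4 (1.17), PP2CA (1.16), BT4 (1.14), PHO1 (0.92), FER4 (0.69) and PHO2 (0.68).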

How the results depend on the processing

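Fitting the 6 WT shoot libraries alone gave 80 higher and 56 lower genes, and the 4 compared libraries alone 45 and 15, with fewer samples to estimate the spread. A ratio of 1.5 gave 379 and 480, and no ratio 633 and 1013. Leaving out 1 library gave 75 to 162 higher and 44 to 159 lower genes. In alternatives chosen after seeing the data, a term for the 5 libraries with non-coding genes gave 147 and 133, whereas leaving those libraries out, which leaves 1 library at day 3 that is assumed to vary like the other groups, gave 5 (AT4, AT3G44510, AT5G20790, PAR1 and AT3G07350) and 0, with 1338 and 2625 genes at an unadjusted p under 0.05. Other scalings and filters kept both counts within 1.5 times. Rescaling by median ratios made 61.6% of calls higher, beside 55.6%. PHR1 changed sign without day 3 replicate 2 or the 5 libraries (−0.0726) and without day 1 replicate 1 (−0.0737), within −0.0737 to 0.0985.

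For line 12 the genes that differed numbered 30 with a mean of at least 1 RPKM, 30 after rescaling, 23 without the non-coding genes of the 5 libraries, 2 (BT5 and DREB2A) with the term for them, 1 (AT5G60330) without those libraries and 0 to 22 without 1 library. For line 4 they numbered 80 with the term, 2 (AT1G29450 and TPS-CIN) without those libraries and 49 to 218 without 1 library, and for roots 296 to 705 without 1 library. The replicate block gave 153 higher and 129 lower genes and 7 for line 12, and same-numbered WT libraries of day 3 and day 1 had a residual correlation of 0.0732. At 24.8 to 31.6 M reads a library, genes near 0.25 RPKM rest on about 10 reads in 1500 bases.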

Other observations

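Further genes called higher at day 3 in WT shoots, picked after their values were seen, belong to regulators and phosphatases outside the lists. WRKY45, a transcription factor known to act on the Pi transporter PHT1;1, had 6.11 and 7.44 RPKM at day 3 and 2.06 and 2.92 RPKM at day 1. NF-YA7, a subunit of a CCAAT-binding factor, had 14.2 and 18.5 RPKM at day 3 and 8.30 and 7.37 RPKM at day 1. The kinases MAPKKK15, MAPKKK16 and MAPKKK19 were all called higher, at low levels of 1.15 to 5.29 RPKM at day 3 and 0.162 to 1.01 RPKM at day 1. AT1G13750, described as a purple acid phosphatase, had 10.3 and 15.4 RPKM at day 3 and 4.18 and 5.10 RPKM at day 1, and PFA-DSP4, a protein phosphatase, had 33.2 and 36.2 RPKM at day 3 and 10.1 and 14.2 RPKM at day 1. PR4, a chitin-binding defence protein, had 319.8 and 349.5 RPKM at day 3 and 146 and 159.6 RPKM at day 1, close to the 142 and 130.3 RPKM of sufficient Pi. EXL3, known from brassinosteroid and carbon responses, had 141 and 164 RPKM at day 3 and 70.9 and 79.8 RPKM at day 1, both under the 237 and 224 RPKM of sufficient Pi.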
